A study of Homo sapiens with 4 samples.

Results

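Transcript levels of 8 enzyme genes of asparagine, proline and glutamate metabolism were taken from 4 RNA-seq libraries in which the gene NME7 was targeted or not. The genes were chosen by name: ASNS, ALDH18A1, PYCR1, GLUD1, GOT1, GOT2, GPT2 and OAT, out of 58735 genes in the deposited tables. All 8 were matched to an Ensembl gene ID through GENCODE release 29 names. The libraries fall into 2 groups of 2, labelled shCtrl (a control short hairpin RNA) and shNME7 (a hairpin against NME7), and all 4 carry the label Huh7, a human hepatocellular carcinoma line. The hairpin sequences, the way they were delivered and the time of harvest were not stated in the labels, nor whether the libraries of a group came from separate cultures. P-values therefore measure only the spread between these libraries, which may be technical.

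Fragments recovered from the deposited values numbered 14877906 to 16991397 per library. The libraries did not pair by group: chi-square per degree of freedom over gene counts was 13.5 between the controls and 24.3 between the shNME7 libraries, whereas shNME7 1 lay at 15.3 and 12.5 from shCtrl 1 and 2. shNME7 2 lay at 16.1 from shCtrl 1 and 38.9 from shCtrl 2, the widest of the 6 pairs, so results are also given with a library left out. By the SD of log2 differences between libraries, the controls were the closest of the 6 pairs, at 0.323. On that scale shNME7 1 still lay nearer to shCtrl 1 and 2 (0.330 and 0.324) than to shNME7 2 (0.363). NME7 itself measured 3.64 and 3.93 FPKM in shCtrl against 0.835 and 0.626 in shNME7, so the targeted transcript was lower in both libraries labelled as its knockdown. FPKM is the fragment number relative to gene length and to a scaled library total, described below. The label Huh7 was checked against 12 hepatocyte lineage genes, among them ALB, AFP, APOA1, SERPINA1 and HNF4A, and the data went against it. 0 of the 12 reached a mean of 1 FPKM, their summed level was 0.146 to 0.216 FPKM per library, and APOA1, APOB, FGB and FOXA2 had no fragment in any library. Of 6 fibroblast genes 4 reached a mean of 1 FPKM, with sums of 92.1 to 103 FPKM led by the collagen gene COL3A1. COL3A1 averaged 73.6 FPKM over the 4 libraries. By contrast COL1A2 had 2 fragments in shCtrl 1 and 0 elsewhere, and DCN had 6 to 16 per library. The fibroblast list therefore does not give the libraries an identity. Of the 6 leukocyte genes and the 2 erythroid genes 0 reached a mean of 1 FPKM, and of 4 endothelial genes 1 did, CDH5. All 4 libraries share this profile, so it does not separate the groups, and they are called here the libraries labelled Huh7.

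The 8 enzymes connect around glutamate. ASNS makes asparagine from aspartate and takes the nitrogen from glutamine. ALDH18A1 turns glutamate into the precursor of proline, OAT makes the same precursor from ornithine, and PYCR1 reduces it to proline in mitochondria. GLUD1 interconverts glutamate and 2-oxoglutarate in mitochondria, and the transaminases GOT1 (cytosol), GOT2 (mitochondria) and GPT2 (mitochondria) move the amino group of glutamate to aspartate or alanine. Asparagine synthetase is a classical target of ATF4, a transcription factor made when amino acids are scarce, which binds together with C/EBP family proteins.

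The sequences upstream of ASNS and GOT1 are shown because these were the members whose promoter windows held the core of the ATF4 and C/EBP composite site. The windows are from RefSeq on GRCh38.p14, where 6 of the 8 genes had an entry (ASNS with 2 starts), and run from 250 bases before to 50 bases after each start. The core searched was TGATGNAA on both strands, along with GTTACA, also on both strands, the second nutrient-sensing element known from the ASNS promoter. The core was found in 3.62% of all 35116 windows and in 4.46% of the 27305 genes with a window. GTTACA was found in 6.66% of the windows. The 250 bases before each start follow, 5′ to 3′ on the strand of the gene, with the matches in capitals. The ASNS window is chr7:97872409-97872658 and that of GOT1 chr10:99430625-99430874, both on the minus strand.
ASNS: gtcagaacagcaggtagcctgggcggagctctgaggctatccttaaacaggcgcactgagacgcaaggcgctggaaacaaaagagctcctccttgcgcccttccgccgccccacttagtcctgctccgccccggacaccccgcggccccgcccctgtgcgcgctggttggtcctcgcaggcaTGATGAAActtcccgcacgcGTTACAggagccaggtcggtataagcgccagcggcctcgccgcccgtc
GOT1: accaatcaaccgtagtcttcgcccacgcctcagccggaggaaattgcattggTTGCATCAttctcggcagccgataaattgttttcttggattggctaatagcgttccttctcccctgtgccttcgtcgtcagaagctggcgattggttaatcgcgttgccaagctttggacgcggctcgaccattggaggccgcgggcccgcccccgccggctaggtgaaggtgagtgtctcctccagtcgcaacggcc
In ASNS the core lies at -68 to -61 from the start and GTTACA at -48 to -43, both on the strand of the gene. In GOT1 the core lies on the other strand at -198 to -191, and GTTACA was not found. Neither sequence was found in the second ASNS window or in the windows of ALDH18A1, GLUD1, GOT2 and OAT. A match describes letters in this window and says nothing of binding. In the data ASNS was lower in both shNME7 libraries, whereas the GOT1 groups overlapped, as given below.

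FPKM values are scaled to gene length, so levels were set beside each other between genes. The length behind these values is that of all annotated exons, not of the transcripts expressed, so comparisons between genes are approximate. PYCR1 had the highest level, with a mean of 84.6 FPKM in shCtrl, followed by GLUD1 at 65.2, GOT2 at 59.7, ALDH18A1 at 41.7, OAT at 25.9, GOT1 at 22.7, GPT2 at 14.0 and ASNS at 2.26. The same order held in shNME7. In shCtrl the ranges of neighbours overlapped for GLUD1 with GOT2 and for OAT with GOT1, and in shNME7 for GLUD1 with GOT2. The rank of ASNS is uncertain, because 1985 of its exonic bases (44.6%) are also annotated, on the same strand, as exons of AC079781.5, a processed transcript with 0 to 4 fragments per library, and how fragments in shared bases were counted is not given in the sources used here.

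**Figure D1:**
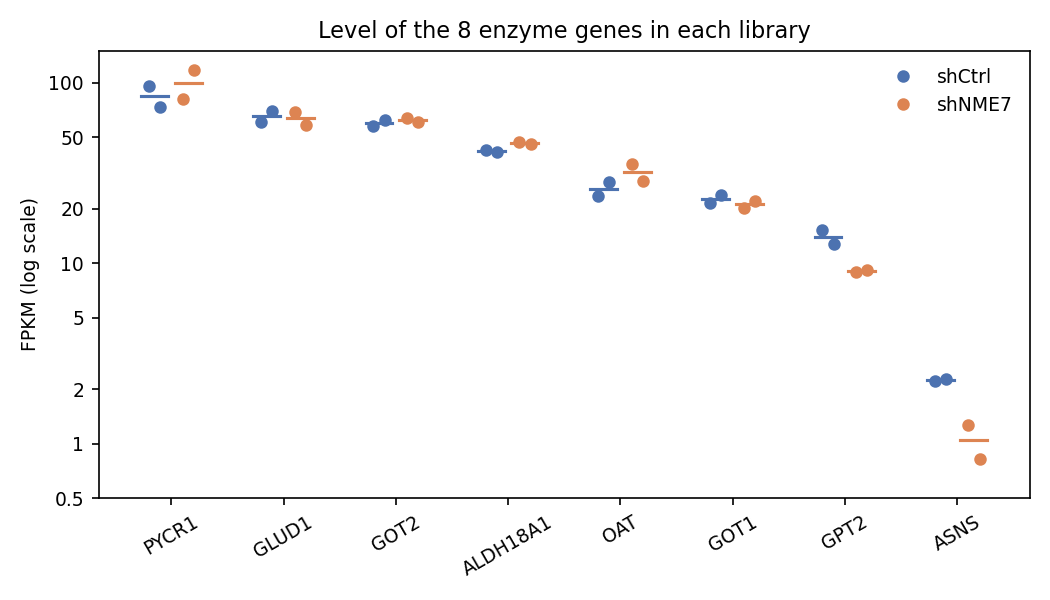
Level of each of the 8 enzyme genes in FPKM (log axis) in the 2 shCtrl (blue) and 2 shNME7 (orange) libraries. Points are libraries and lines are group means. PYCR1 lies at 73.7 to 117 FPKM and ASNS at 0.819 to 2.30, and the groups are apart for ASNS, GPT2, OAT and ALDH18A1.

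The comparison between the groups asked which of these transcripts differ when NME7 is knocked down. The 8 genes did not move as 1 group: 4 had a lower mean in shNME7 and 4 a higher one. Each shNME7 value was under each shCtrl value for 2 genes, ASNS and GPT2, against 18.4% of all 12866 tested genes. Each was above for 2 others, OAT and ALDH18A1, against 17.8%. The remaining 4 overlapped. The median log2 difference of the 8 genes was 0.01, as was the median of all tested genes. All 8 genes passed the filter on low values (a mean of at least 1 FPKM). The mean of ASNS over the libraries was 1.65, and its level in shNME7 2 was under 1.

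None of the 8 passed limma-trend on log2(FPKM + 1) after Benjamini-Hochberg adjustment over all tested genes at a threshold of 0.05, which called 0% of those genes. On this scale 2 members, ASNS and GPT2, were lower with an unadjusted p under 0.05, as were 3.22% of tested genes. limma-voom on recovered fragments called 0.106% of 15112 genes and again 0 of the 8, and ASNS and GPT2 were again lower with an unadjusted p under 0.05, against 3.98% of genes. The smallest adjusted p among the 8 in limma-voom was 0.207. NME7, the targeted gene, did not pass limma-trend either (log2 difference -1.47, adjusted p 0.310). It passed limma-voom (-2.39, adjusted p 0.000998), so failing limma-trend does not show that a level was unchanged. A permutation test of 2 libraries against 2 cannot give a two-sided p below 0.333.

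ASNS, the asparagine-forming enzyme, measured 2.21 and 2.30 FPKM in shCtrl against 1.27 and 0.819 in shNME7, each pair in the order of replicate 1 and 2, as throughout. The shNME7 libraries are both lower and they differ from each other more than the shCtrl libraries do. The means were 2.26 ± 0.0577 and 1.04 ± 0.318 FPKM (SD, n = 2 each), a level 2.16-fold lower in shNME7. The recovered fragments numbered 157 and 165 against 85 and 62, the fewest of the 8 genes. Their exact 95% Poisson intervals, which cover counting error only, ran from 133 to 184 and 141 to 192 in shCtrl and from 67.9 to 105 and 47.5 to 79.5 in shNME7. The log2 difference was -0.68 (SE 0.19, 95% confidence interval -1.14 to -0.22) in limma-trend (adjusted p 0.687). In limma-voom, where no pseudocount of 1 shrinks it, the difference was -1.15 (SE 0.28, interval -1.75 to -0.56) with an adjusted p of 0.207. Without shNME7 1 the ASNS difference was -0.84 in limma-trend (adjusted p 0.0292) and -1.45 in limma-voom (adjusted p 0.00530). Without shNME7 2 it was -0.52 (limma-trend adjusted p 0.607) and -0.83 (limma-voom adjusted p 0.571), so the call rests on which shNME7 library is kept. The fits without shNME7 1 called 1.73% and 0.86% of all genes lower, and the lone shNME7 library was assumed to vary like the other group. The ASNS pseudogenes were near 0, the highest being ASNSP1 with 12 and 5 fragments in shCtrl and 0 and 2 in shNME7.

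GPT2, the mitochondrial alanine transaminase, measured 15.2 and 12.7 FPKM in shCtrl against 8.92 and 9.19 in shNME7. The shNME7 values lie close together and below both controls. The means were 14.0 ± 1.75 and 9.06 ± 0.191 FPKM (SD, n = 2 each), a level 1.54-fold lower, from 1538 and 1306 against 852 and 992 fragments. The log2 difference was -0.57 (SE 0.15, interval -0.92 to -0.22) in limma-trend (adjusted p 0.599) and -0.62 in limma-voom (adjusted p 0.320). Its cytosolic counterpart GPT had few fragments, 28 and 21 in shCtrl and 26 and 57 in shNME7, at 0.638 and 0.472 against 0.628 and 1.22 FPKM. GPT was below the filter and its groups overlapped.

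The proline branch had no member with a lower mean. ALDH18A1, which starts proline synthesis from glutamate, measured 42.2 and 41.2 FPKM in shCtrl against 47.0 and 45.7 in shNME7. Replicates differed little and the groups did not overlap, but the gap was small: 41.7 ± 0.727 against 46.4 ± 0.989 FPKM (SD, n = 2 each), 1.11-fold higher in shNME7. Its log2 difference was 0.15 with a 95% interval of -0.17 to 0.47 in limma-trend (adjusted p 0.838). OAT, which feeds ornithine into the same precursor, measured 23.7 and 28.1 FPKM in shCtrl against 35.7 and 28.6 in shNME7. The higher shCtrl library and the lower shNME7 library nearly meet, so the groups are only just apart. The OAT means were 25.9 ± 3.11 and 32.2 ± 4.98 FPKM (SD, n = 2 each), 1.24-fold higher, with a log2 difference of 0.30 and an interval of -0.11 to 0.71 (limma-trend adjusted p 0.795). The OAT difference ranged from 0.14 without shNME7 1 to 0.45 without shNME7 2 in limma-trend. The ratio of ALDH18A1 to OAT transcript was 1.78 and 1.47 in shCtrl and 1.32 and 1.59 in shNME7, so this ratio overlapped between the groups. Use of the 2 routes into the proline precursor was not measured.

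PYCR1, the mitochondrial reductase that finishes proline synthesis, measured 95.4 and 73.7 FPKM in shCtrl against 81.6 and 117 in shNME7, so the groups overlapped and the highest library was shNME7 2. The log2 difference was 0.22 with an interval of -0.32 to 0.76 (limma-trend adjusted p 0.847). Without shNME7 2 its sign turned, to -0.04. PYCR3, a cytosolic paralog that carries out the same step, measured 10.1 and 8.73 FPKM in shCtrl against 12.2 and 16.7 in shNME7, a log2 difference of 0.56 (limma-trend adjusted p 0.728). PYCR3 lay above the controls in both shNME7 libraries and did not pass. Without shNME7 1 the PYCR3 difference was 0.77 in limma-trend and 0.83 in limma-voom, both past the threshold, in fits that called 3.19% and 1.99% of all genes higher. Without shNME7 2 it was 0.35 and 0.38, and with the GC and length trend described below removed it was 0.39 in limma-trend, and none of these passed. Of the proline-degrading enzymes, PRODH had 1 to 4 fragments per library, and ALDH4A1 had means of 2.71 ± 0.528 and 3.33 ± 0.240 FPKM (SD, n = 2 each) in shCtrl and shNME7. Of the exonic bases of PYCR1, 14.1% are shared on the same strand with MYADML2, which had 3 to 6 fragments per library. How fragments in these bases were counted is not given, so the PYCR1 level may be inexact.

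For the glutamate enzymes GLUD1, GOT1 and GOT2 the groups overlapped. GLUD1, glutamate dehydrogenase, measured 60.4 and 70.1 FPKM in shCtrl against 69.0 and 58.7 in shNME7, so each group had 1 high and 1 low library. Its log2 difference was -0.03 with an interval of -0.42 to 0.35 (limma-trend adjusted p 0.971), and its sign turned when shCtrl 2 or shNME7 2 was left out (0.07 and 0.08). Reads of GLUD1 could be shared with near copies: GLUD2 had 7 to 12 fragments per library, and the pseudogene GLUD1P3 had 62 and 80 in shCtrl and 100 and 60 in shNME7, against 3381 to 3980 for GLUD1. In addition 464 exonic bases of GLUD1 (13.2%) lie opposite SHLD2, which stood at 15.8 and 16.0 FPKM on average in shCtrl and shNME7, and strand use in counting is not given.

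GOT1, the cytosolic aspartate transaminase, measured 21.7 and 23.7 FPKM in shCtrl against 20.3 and 22.1 in shNME7. The log2 difference was -0.10, with an interval of -0.43 to 0.24 (limma-trend adjusted p 0.890). GOT2, the mitochondrial form, measured 57.5 and 61.9 FPKM in shCtrl against 63.6 and 60.8 in shNME7, with a difference of 0.06 and an interval of -0.27 to 0.39 (limma-trend adjusted p 0.934). Both intervals cover 0, and differences within them were not detectable with these libraries. Of the exonic bases of GOT1, 19.3% lie opposite the non-coding gene AL391684.1, which had 95 to 133 fragments per library. The ratio of GOT2 to GOT1 was 2.65 and 2.61 in shCtrl and 3.13 and 2.76 in shNME7, higher in both shNME7 libraries. The ratio of GPT2 to GOT1, both enzymes that take the amino group from glutamate, was 0.701 and 0.537 in shCtrl and 0.439 and 0.417 in shNME7. These ratios within a library show unequal levels and were not tested.

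**Figure D2:**
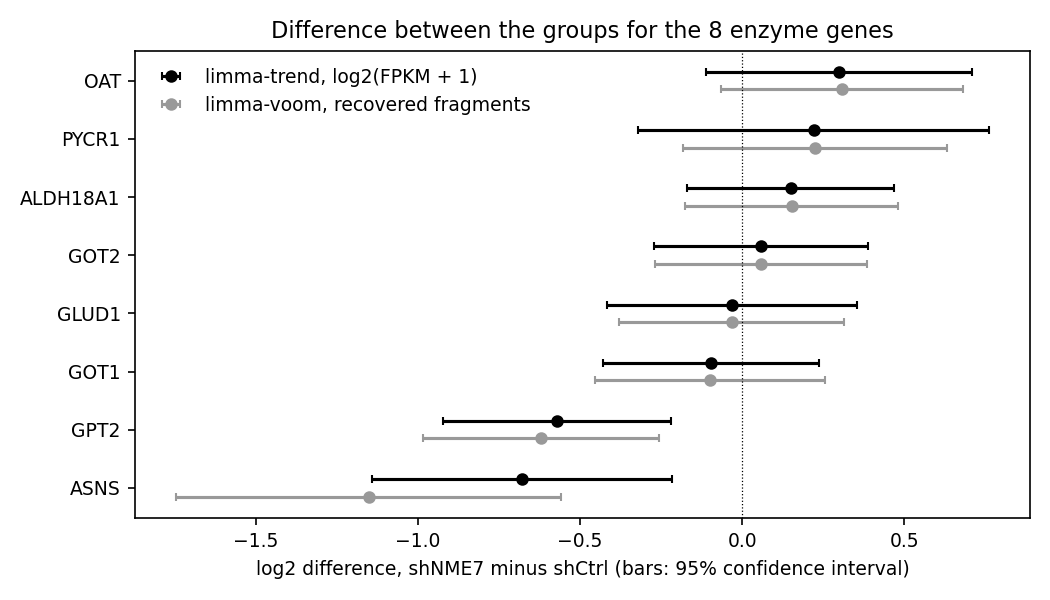
Log2 difference between shNME7 and shCtrl for the 8 enzyme genes, in limma-trend on log2(FPKM + 1) (black) and limma-voom on recovered fragments (grey). Points are estimates and bars 95% confidence intervals, unadjusted. Only the intervals of ASNS and GPT2 lie wholly below 0 in both fits, and neither gene passed after adjustment (adjusted p 0.687 and 0.599 in limma-trend).

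GLUL, which makes glutamine from glutamate, measured 4.15 and 3.82 FPKM in shCtrl against 4.94 and 5.50 in shNME7. Its shNME7 libraries were both higher, with a log2 difference of 0.32 (limma-trend adjusted p 0.773).

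Over 12857 tested genes the difference between the groups followed the GC content of the transcripts, with a Spearman rho of 0.42. Its points are genes that share the same 4 libraries. The members span 42.4% (OAT) to 62.4% (PYCR1) GC. With a smooth trend on GC content and exonic length taken out of each library, the PYCR1 difference was 0.06 in place of 0.22, while those of ASNS (-0.63), GPT2 (-0.61) and OAT (0.34) stayed near their first values. None passed in that fit, which called 0.00777% of genes, or in limma-voom with the trend removed, which called 0.0860%. The smallest adjusted p in the latter was 0.121, for GPT2.

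**Figure D3:**
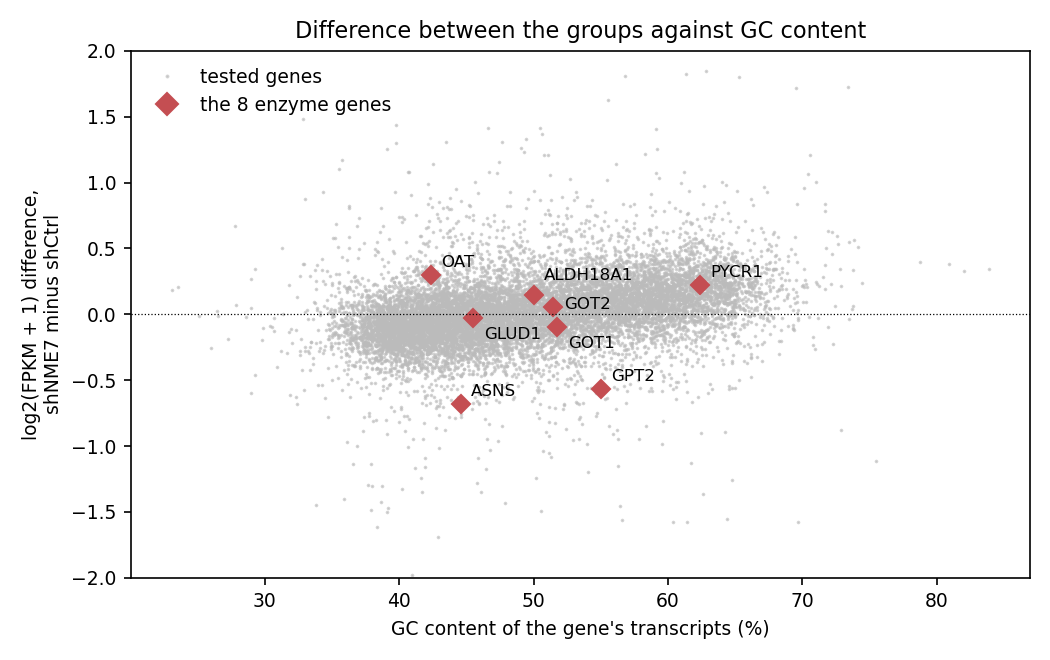
Log2(FPKM + 1) difference between shNME7 and shCtrl (y axis, cropped at 2 in both directions, 5 genes lie beyond) against the GC content of each gene's transcripts in percent (x axis). Grey points are tested genes and red diamonds the 8 enzyme genes. PYCR1 at 62.4% GC lies within the upward drift of GC-rich genes, whereas GPT2 at 55.0% lies below it and OAT at 42.4% above it.

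The surrounding pathways were described from 8 lists holding 125 genes besides the members, all matched to an ID and chosen with earlier results of these data known. Of these, 101 passed the filter, 40 with a higher and 61 with a lower mean log2 value in shNME7, and their median difference was -0.05 against 0.01 for all tested genes. Both shNME7 libraries lay below the controls for 35 of the 101 and above them for 15, against 18.4% and 17.8% of all tested genes. limma-trend called 0 of them, SLC7A11 and TRIB3 having an adjusted p of 0.320 each, and limma-voom called 2 of 108, SLC7A11 and TRIB3, both lower, against 0.106% of all genes. Since the group difference follows GC content, each list median is followed by its value with the GC and length trend removed.

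The enzyme lists held genes of both directions, while most genes of the carrier and regulator lists had lower values. Of the other proline genes, 6 were tested, 4 higher and 2 lower (median 0.21, or 0.099 with the trend removed). Next to PYCR3, PEPD, which cleaves dipeptides ending in proline, overlapped at 11.2 and 9.57 against 10.8 and 15.7 FPKM, as did P4HA1, a collagen prolyl hydroxylase subunit, at 22.2 and 24.9 against 22.7 and 16.5. In asparagine and aspartate metabolism 4 of 8 were higher (median 0.01, or 0.019). ASS1, which joins citrulline to aspartate, measured 169 and 144 against 119 and 142 FPKM and lay below both controls. ASL, which splits the product of ASS1, overlapped at 6.25 and 3.88 against 4.83 and 7.70 FPKM, and NIT2, an omega-amidase, lay above both controls at 5.56 and 5.90 against 6.63 and 6.50. Of 20 other genes of glutamate and glutamine conversion 9 were higher and 11 lower (median -0.03, or -0.00096). The lowest of these was PSAT1, the serine pathway transaminase that also consumes glutamate, at 193 and 187 against 120 and 102 FPKM. BCAT1, a branched-chain transaminase, followed at 23.1 and 26.2 against 17.5 and 14.6 FPKM. GFPT1, which starts hexosamine synthesis, came next at 27.2 and 32.7 against 25.1 and 18.8 FPKM. All 3 lay below both controls and none passed limma-trend with all libraries kept (adjusted p 0.505, 0.603 and 0.748). With each library left out in turn, the limma-trend difference ran from -0.89 to -0.66 for PSAT1. That of BCAT1 ran from -0.71 to -0.47 and that of GFPT1 from -0.64 to -0.24.

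Mitochondrial traffic of aspartate, glutamate and malate had 5 of 7 other genes higher (median 0.14, or 0.0044 with the trend removed), among them the glutamate carrier SLC25A22 at 11.0 and 11.1 against 12.7 and 16.6 FPKM, SLC25A10 at 8.73 and 6.77 against 8.53 and 13.0, and SLC25A11 at 37.0 and 28.3 against 32.4 and 40.2. With the trend removed the differences of SLC25A22, SLC25A10 and SLC25A11 were 0.21, 0.23 and 0.0044 in place of 0.37, 0.41 and 0.15. Ornithine and urea cycle genes had 3 of 7 higher (median -0.12, or -0.021). CPS1, the first step of the urea cycle, stood at 145 and 167 against 149 and 121 FPKM. The citric acid cycle list had 13 of 21 higher (median 0.03, or 0.052), with IDH1, the cytosolic isocitrate dehydrogenase that forms 2-oxoglutarate, at 29.4 and 30.6 against 23.3 and 21.2 FPKM. IDH3B, a subunit of the mitochondrial NAD-dependent enzyme, lay above both controls at 32.6 and 28.2 against 33.8 and 38.2 FPKM, and ME1, the cytosolic malic enzyme, overlapped at 20.1 and 22.4 against 20.7 and 15.5.

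The carrier list (glutamine, asparagine, proline, aspartate and glutamate, with subunits) was not checked for where in the cell each product acts. Of its 17 tested genes 16 had a lower mean log2 value in shNME7. Both shNME7 libraries lay below the controls for 12, against 18.4% of all tested genes (median -0.32, or -0.24 with the trend removed). SLC7A11, which imports cystine in exchange for glutamate, stood at 22.2 and 24.9 against 10.2 and 6.71 FPKM and fell in limma-voom (adjusted p 0.00505). Of 17 regulators of the amino acid response 15 were lower, and 10 had both libraries below the controls, again against 18.4% of all tested genes (median -0.38, or -0.29). ATF4 measured 261 and 257 FPKM in shCtrl against 207 and 182 in shNME7, and TRIB3, a pseudokinase that ATF4 induces, fell in limma-voom (adjusted p 0.00839) from 103 ± 15.2 to 46.3 ± 1.06 FPKM (SD, n = 2 each). The ATF4 difference, -0.41, did not pass in limma-trend or limma-voom (adjusted p 0.729 and 0.530). Medians here describe the lists, which were chosen with earlier results known, and were not tested.

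**Figure D4:**
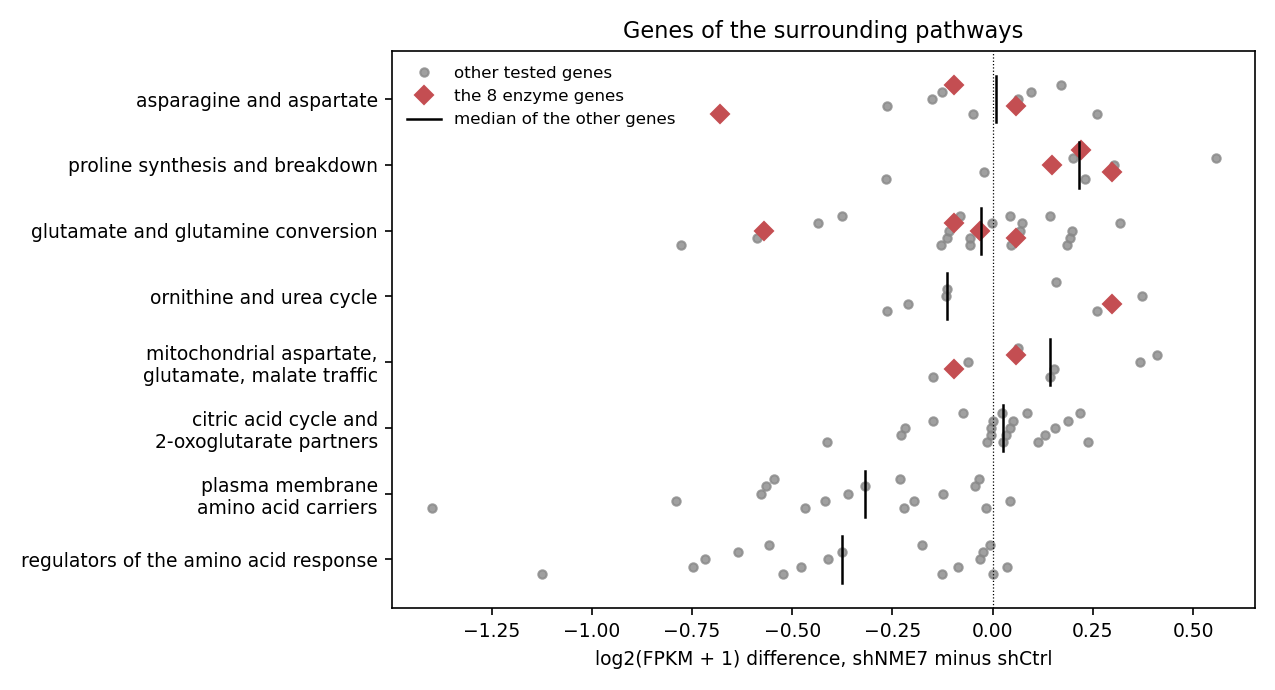
Log2(FPKM + 1) difference between shNME7 and shCtrl for the tested genes of 8 pathway lists (grey points), with the 8 enzyme genes as red diamonds in each list that holds them and a bar at the median of the other genes. Vertical spread within a list only separates points. The medians run from -0.38 for the regulators and -0.32 for the carriers to 0.21 for the proline genes, all before removal of the GC trend.

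The 5 genes most like ASNS were chosen among 4871 genes with a mean of at least 10 FPKM by the root mean square distance between centred log2(FPKM + 1) profiles over the 4 libraries. They were GARS (distance 0.0171), FAM84B (0.0344), NFIL3 (0.0448), AMIGO2 (0.0502) and NCOA7 (0.0523). GARS, the glycyl-tRNA synthetase gene, measured 98.6 and 104 FPKM in shCtrl against 71.1 and 56.9 in shNME7, and like ASNS it was lowest in shNME7 2. The likeness is on the log2(FPKM + 1) scale, where the pseudocount shrinks ASNS more than these genes of higher level. In limma-voom the GARS difference was -0.67 against -1.15 for ASNS. For GOT1 the closest were PPP4R1 (0.00985), ERG28 (0.0105), RASSF3 (0.0139), TRIM44 (0.0146) and UGGT1 (0.0152), whose groups all overlapped. With 4 libraries many genes share a profile, so the distances are a description.

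By position 4 of the 8 genes lie on chromosome 10 of GRCh38, all on the minus strand: GLUD1 (ENSG00000148672, 87050486 to 87094866), ALDH18A1 (ENSG00000059573, 95605929 to 95656706), GOT1 (ENSG00000120053, 99396870 to 99431569) and OAT (ENSG00000065154, 124397303 to 124418976). Their differences were -0.03, 0.15, -0.10 and 0.30, and the median of the 490 tested genes of that chromosome was -0.03. ASNS lies on chromosome 7 (ENSG00000070669, 97852118 to 97872542), PYCR1 on 17 (ENSG00000183010, 81932384 to 81942412), GOT2 on 16 (ENSG00000125166, 58707131 to 58734357) and GPT2 on 16 (ENSG00000166123, 46884378 to 46931297, plus strand).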

How the data were processed

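Expression was measured by RNA-seq in 4 libraries, each deposited by the authors as its own table of FPKM, a unit taken from the header of each table. HISAT2 2.0.5 and the build hg18 appear in the submitters' processing notes. How fragments were counted, against which annotation and with which filters, is not given in the sources used here. Every one of the 58735 gene IDs is present in GENCODE release 29 (GRCh38), the source of names, exon lengths and coordinates. The exon lengths of this release turned the values into whole multiples, as given below. The lengths behind the values thus match a GRCh38 annotation, which differs from the build hg18 in the notes.

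FPKM multiplied by exon length gave whole multiples of a step per library (100% of values above 0 within 0.01), so fragments were recovered. The totals implied by the steps equal median-ratio size factors times the geometric mean of the totals, which is inferred from the values. A count of 0 allows up to 3 fragments.

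The main test was limma-trend (limma 3.58.1, R 4.3.3) on log2(FPKM + 1) for 12866 genes with a mean of at least 1 FPKM, group as the only term, two-sided, adjusted by Benjamini-Hochberg over all tested genes. Fold changes on this scale understate those of low genes. limma-voom used 15112 genes with a mean of at least 10 recovered fragments. Alternatives were a pseudocount of 0.1, no filter, a block for the replicate number, leaving out each library, and removal of a loess trend (span 0.3) on GC content and length. The tests were tested on simulated data. The replicate numbers do not pair the libraries by any label.

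The members and lists were chosen with earlier results of these data known. Named genes are the members, NME7, ATF4, near copies, paralogs and enzymes of neighbouring steps, and per list the called genes, or otherwise up to 3 with the largest change and at least 5 FPKM in the higher group. Marker genes served to check the label. Some genes this rule names are not reported here.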

Additional observations from a re-analysis of the deposited data

How the results depend on the processing

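No member was called under any alternative except ASNS without shNME7 1. ASNS, GPT2 and GOT1 stayed lower and ALDH18A1, OAT and GOT2 higher under every alternative run. With each library left out, the ASNS difference ran from -0.84 to -0.52 in limma-trend and from -1.45 to -0.83 in limma-voom, and that of GPT2 from -0.69 to -0.45 and from -0.75 to -0.49. Over both fits the range was -0.039 to 0.48 for PYCR1, -0.15 to 0.085 for GLUD1 and -0.068 to 0.056 for the median of the 8. GLUD1 was 0.00799 in limma-voom once the trend on GC content and length was taken out. Both shNME7 libraries lay below the controls for 2 members by FPKM, against 18.4% of all tested genes, and for 3 with that trend removed. The share of all tested genes with the trend removed was not counted, so this count of members is a description only. Of genes named beside them, in limma-trend and limma-voom, TRIM44 was 0.022 and 0.00146, UGGT1 0.029 and 0.058, and SLC25A11 -0.015 (limma-voom only) with the trend removed. With a library left out ASL ran from -0.030 to 0.66, SLC25A11 from -0.036 to 0.35 and UGGT1 from -0.16 to 0.00044 over both fits. The cause of these changes was not tested.

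The number of genes called over all tested genes was 0 in limma-trend, 442 with no filter (where limma warned that most variances were 0), 1 with the trend removed, 16 in limma-voom, 13 in limma-voom with the trend removed, and 112 to 632 (limma-trend) and 28 to 430 (limma-voom) with a library left out. Of the listed pathway genes limma-voom called 2 against 0. With the replicate block the counts were 122 in limma-trend and 34 in limma-voom. Same-numbered libraries deviated from their group means with a correlation of -0.35. This is 1 value over all tested genes, and it cannot decide whether same-numbered libraries shared a preparation. The ASNS difference under the block was -0.68 in limma-trend with an adjusted p of 0.443. Crossing the pairs, an alternative added after seeing the data, called 0 genes. ASNS had the fewest fragments of the 8 genes, 62 to 165 per library.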
